A study of Mus musculus with 17 samples.

Results

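The transcripts described here encode the nuclear subunits of the 5 mitochondrial complexes of oxidative phosphorylation, measured by mRNA sequencing in 17 pieces of mouse kidney cortex. They were chosen by symbol alone. Every protein coding gene named Ndufa, Ndufb, Ndufc, Ndufs or Ndufv with a number, Sdha to Sdhd, Cyc1, or a symbol starting with Uqcr, Cox4 to Cox8 or Atp5 was taken, and Ndufa4l2 was set aside. The rule gave 85 of the 48795 genes in the table, of which 21637 are typed as protein coding. There were 36 genes of complex I, 4 of complex II, 9 of complex III, 19 of complex IV and 17 of complex V. A further 14 matching symbols were typed as pseudogenes and were not taken, whereas Cox5b-ps is typed as protein coding and was.

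Complexes I to IV pass electrons from NADH and succinate to oxygen, and complexes I, III and IV pump protons across the inner mitochondrial membrane. Complex V, the ATP synthase, uses the proton gradient to make ATP. Most subunits are encoded in the nucleus, made in the cytosol and imported, and the rest are encoded by mitochondrial DNA. Proximal tubule cells are packed with mitochondria, because reabsorption of solutes from the filtrate is paid for with ATP from this chain.

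Cortices came from 4 groups. The study's methods describe a fast of the mice before tissues were taken. The 5 WT samples are labelled as wild type, with no allele or treatment added. The 5 GCERAd samples are labelled ATF4 KO: these mice carried a tamoxifen-inducible Cre driven by a fragment of the Ggt1 promoter, which is active in proximal tubules, together with floxed Atf4 alleles, and were given tamoxifen in cottonseed oil when a few weeks old. ATF4 is the transcription factor of the integrated stress response. Cre, tamoxifen and the deletion come together in GCERAd, so they cannot be told apart in a comparison with WT. The 3 TRACK samples came from the transgenic kidney cancer model of that name, in which a constitutively active HIF1A is driven in proximal tubules, and the 4 GCERAdT samples carried both the TRACK transgene and the ATF4 KO. Each sample is labelled as a separate mouse, but the labels' protocol gives 3 to 4 mice per cohort, and WT and GCERAd have 5 samples each. Some of these samples may share a mouse, in which case their p-values are too small. The deletion is meant for 1 cell type while the cortex pieces hold all of them, so fewer cells of a type and less RNA per cell cannot be told apart in any value below.

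Several facts of the libraries touched the results. Totals ran from 53688512 to 71364561 counts. The libraries fell into 2 kinds by the share of counts on processed pseudogenes, 0.032 to 0.038% in the 8 libraries of kind A and 0.0574 to 0.0784% in the 9 of kind B. WT held 4 of kind A and 1 of kind B (WT 2), GCERAd 2 and 3, GCERAdT 2 and 2, and TRACK 0 and 3, so TRACK and library kind overlapped almost entirely. The 4 summed Y-linked genes stood at 0 to 0.308 CPM (counts scaled to a common library size) in WT and at 129 to 170 in the other groups, and Xist at 147 to 422 CPM in WT and at most 6.06 elsewhere. Sex and genotype therefore cannot be told apart in any comparison with WT. After group and library kind were taken out, GCERAd 2 and 3 deviated together (r = 0.607 across genes), as did GCERAd 4 and 5 (r = 0.621). Atf4 itself stood at 79.6, 74.8, 81.5, 86.9 and 101 CPM in WT and at 73.0, 55.8, 57.4, 61.8 and 75.1 in GCERAd, a log2 fold change of -0.38 (SE 0.11, adjusted p = 0.0218) with overlapping groups, and GCERAdT lay 0.52 above GCERAd (SE 0.11, adjusted p = 0.0108).

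Per transcript length, the members were abundant. The median member had 131 FPKM (the same scaling, per 1000 bases of merged exons) in WT, against 5.31 for all genes tested, and a merged exon length of 1550 bases, from 360 to 8086, against 4050. The WT median was 112 FPKM for complex I, 182 for complex II, 255 for complex III, 142 for complex IV and 141 for complex V. Cox8a, the general isoform of cytochrome oxidase subunit VIII, was highest at 881 FPKM, followed by Cox6a1, the general isoform of subunit VIa, at 822, and the catalytic ATP synthase subunit Atp5b at 648. Of complex I the highest was Ndufa4 at 378 FPKM, a subunit now placed with cytochrome oxidase, and the lowest Ndufb2 at 5.36. Sdhd, a membrane anchor of succinate dehydrogenase, stood at 256 FPKM and Sdhc, the other anchor, at 108. Uqcr10 of complex III stood at 418 and its core protein Uqcrc1 at 104, and the ATP synthase subunit Atp5l at 23.4. Cox8c had no count in any library and Cox7b2 a highest group mean of 0.021 FPKM, so neither was tested. The lowest members that passed the minimum of 1 FPKM were Cox6a2, whose highest group mean was 2.7, and Cox5b-ps at 4.26.

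Promoters of 68 of the 85 members were found among the RefSeq sequences given for GRCm38.p6, each running from 250 bases before to 50 after the gene start. Letters bound by factors with a known role in respiratory gene expression were looked for on both strands. Shares were set against all 27025 genes with a promoter given, with no filter on gene type or level. The NRF1 letters GCGCATGC were in 10 members (14.7%) and in 3.05% of all these genes, and the GABP/ETS letters CCGGAAG in 17 (25.0%) and 9.93%. The YY1 letters AAGATGGC were in 10 (14.7%) and 3.19%, and the estrogen-related receptor letters TCAAGGTCA in 2 (2.94%) and 0.466%. In all, 32 members held at least 1 of the 4, and 5 held both NRF1 and GABP/ETS letters. Those 5 were Uqcr11, Cox6a1, Sdhb, Atp5k and Atp5l. Of them 3, of complexes III, IV and II, are shown with NRF1 and GABP/ETS letters in capitals, on either strand. In Cox6a1 a pair of NRF1 matches overlaps into 1 run. A match is a description of the sequence and does not show that a factor binds there.
Uqcr11, chr10:80406772-80407071, minus strand: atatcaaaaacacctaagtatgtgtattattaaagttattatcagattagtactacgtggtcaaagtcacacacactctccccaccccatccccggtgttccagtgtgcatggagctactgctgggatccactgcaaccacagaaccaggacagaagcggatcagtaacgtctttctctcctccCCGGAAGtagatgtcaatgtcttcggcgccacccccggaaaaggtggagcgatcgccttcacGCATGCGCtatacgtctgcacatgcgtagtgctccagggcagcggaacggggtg
Cox6a1, chr5:115348909-115349208, minus strand: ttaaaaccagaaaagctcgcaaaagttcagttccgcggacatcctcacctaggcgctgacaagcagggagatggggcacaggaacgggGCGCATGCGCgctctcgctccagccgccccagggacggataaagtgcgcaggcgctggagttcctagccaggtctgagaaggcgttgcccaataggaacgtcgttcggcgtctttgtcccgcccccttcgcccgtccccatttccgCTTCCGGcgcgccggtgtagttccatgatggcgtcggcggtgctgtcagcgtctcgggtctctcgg
Sdhb, chr4:140961021-140961320, plus strand: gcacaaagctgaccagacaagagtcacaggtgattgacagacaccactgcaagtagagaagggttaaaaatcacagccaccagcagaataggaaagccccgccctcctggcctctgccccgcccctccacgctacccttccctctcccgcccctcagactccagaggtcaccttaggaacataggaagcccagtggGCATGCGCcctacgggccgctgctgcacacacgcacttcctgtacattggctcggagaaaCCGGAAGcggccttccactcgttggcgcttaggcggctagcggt

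As a share of all counts, the members together took 2.34 to 2.77% in WT, 2.11 to 2.43% in GCERAd, 2.24 to 2.31% in TRACK and 1.96 to 2.33% in GCERAdT, with means of 2.51% ± 0.165 (SD, n = 5), 2.25% ± 0.12 (SD, n = 5), 2.28% ± 0.0351 (SD, n = 3) and 2.16% ± 0.169 (SD, n = 4). In percentage points, the widest gap in means to WT was that of complex IV in GCERAd and of complex V in TRACK and GCERAdT. Complex V had the largest share, with means of 0.93% in WT, 0.838% in TRACK and 0.78% in GCERAdT. Complex IV had means of 0.465%, 0.387% and 0.383% in these groups, a larger fall than that of complex V in proportion to WT. Complex IV genes took 0.430 to 0.507% of counts in WT and 0.341 to 0.397% in GCERAd, without overlap. TRACK ranged from 0.383 to 0.395%, below WT, and GCERAdT from 0.333 to 0.430%, so that its highest library reached the lowest WT library. Complex V took 0.868 to 0.991% in WT, 0.798 to 0.878% in GCERAd, 0.824 to 0.855% in TRACK and 0.733 to 0.835% in GCERAdT. The shares of complex II were close in WT and GCERAd, with means of 0.187% and 0.189%, and lower in GCERAdT at 0.165%. No test was run on these sums. The 13 subunits encoded by mitochondrial DNA took 16.8 to 18.7% of counts in WT, 11.6 to 16.0% in GCERAd, 11.4 to 12.1% in TRACK and 11.8 to 14.6% in GCERAdT.

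**Figure D1:**
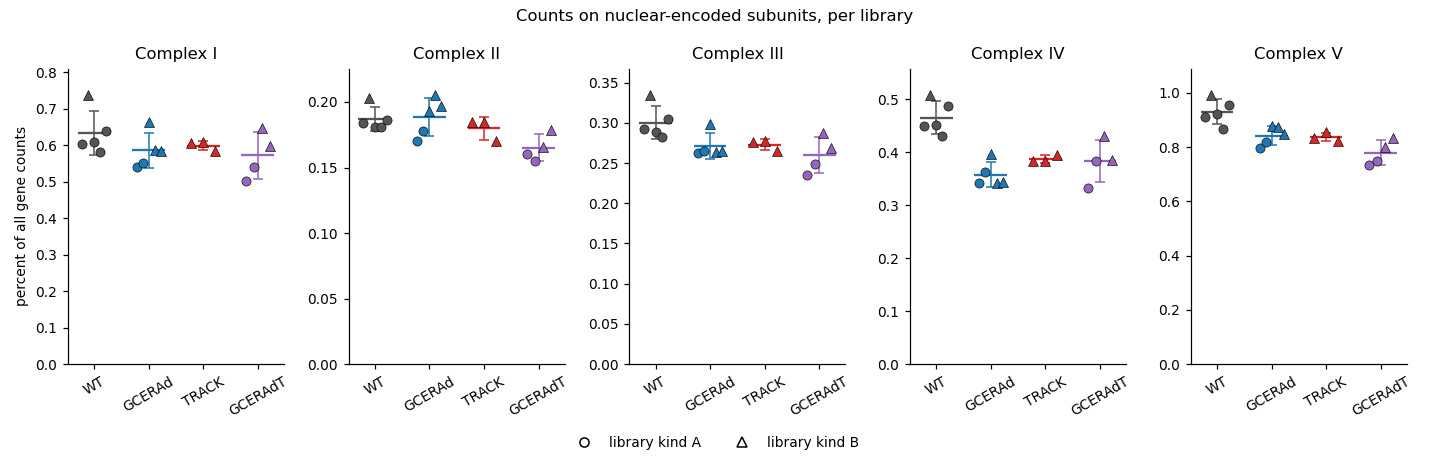
Percent of each library's counts on the nuclear subunits of complexes I to V, for the 4 groups. Each point is 1 library (circles kind A, triangles kind B), the line is the group mean and the bar 1 SD; for complex IV the 5 GCERAd libraries (0.341 to 0.397%) all sit below the 5 WT libraries (0.430 to 0.507%).

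The first comparison set these transcripts in cortices with the ATF4 KO label against those of wild type. In GCERAd against WT, 13 of 82 members tested were lower and 1 was higher. The largest group of falls was in complex IV, cytochrome c oxidase, where 6 of 16 fell (37.5%) and none rose. The one rise was Ndufs1, the largest subunit of complex I. The 15.9% of members that fell compare with 13.5% of all 11581 genes tested, and the 1 that rose with 14.1%, so the share that fell was near that of all genes. The median log2 fold change was -0.14 for the members and 0.0 for all genes tested. With library kind as a covariate, 30 were lower (36.6%) against 14.8% of all genes and 1 was higher against 15.1%, the members' median was -0.20, and all 14 members called without the covariate were called again. Within kind A alone 18 fell and 1 rose, against 13.2% and 14.3% of all genes. Within kind B, with the lone WT library 2, no member was called, and of all genes 0.43% were called higher and 0.412% lower.

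Of the complex IV members, Cox7b, an accessory subunit (ENSMUSG00000031231, chrX:106015700-106022450), fell most among the abundant ones. It stood at 428, 461, 432, 454 and 490 CPM in WT and at 317, 331, 342, 243 and 239 in GCERAd. Every GCERAd library was below every WT library, GCERAd 4 and 5 lowest, and the log2 fold change was -0.61 (SE 0.11, adjusted p = 0.00204). Cox5b, a subunit on the matrix side of the enzyme, stood at 422, 369, 435, 387 and 476 CPM in WT and at 314, 355, 280, 267 and 268 in GCERAd. The groups did not overlap, although GCERAd 2 came close to WT 2, and Cox5b fell by 0.48 on the log2 scale (SE 0.10, adjusted p = 0.00425). Cox6a1, the general isoform of subunit VIa whose promoter is printed above, stood at 585, 572, 569, 539 and 620 CPM in WT and at 441, 513, 493, 447 and 447 in GCERAd. This was a smaller difference, without overlap, of -0.29 (SE 0.07, adjusted p = 0.012). Cox7a2l, which helps to join complexes III and IV into supercomplexes, stood at 145, 134, 132, 141 and 134 CPM in WT and at 109, 116, 100, 116 and 109 in GCERAd, with a change of -0.31 (SE 0.06, adjusted p = 0.00376). Cox7a1 and Cox8b are described with the isoforms below. Cox4i1, the regulatory subunit, changed by -0.29 (SE 0.12, adjusted p = 0.0861) and was called only with library kind as a covariate, at -0.43 (adjusted p = 0.00297). Cox6c was likewise called only then, at -0.61 (adjusted p = 0.00265).

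Outside complex IV, 4 of 17 members of the ATP synthase fell. Atp5g1, which encodes the c subunit of the rotor, stood at 280, 271, 299, 259 and 321 CPM in WT and at 211, 240, 224, 195 and 175 in GCERAd, without overlap (log2 fold change -0.44, SE 0.09, adjusted p = 0.00509). Atp5o, part of the peripheral stalk, fell by 0.30 on the log2 scale (SE 0.08, adjusted p = 0.0128), and Atp5h, another stalk subunit, by 0.35 (SE 0.10, adjusted p = 0.0236). Atp5md, a small membrane subunit, fell by 0.46 (SE 0.15, adjusted p = 0.0441), with overlapping groups. The last 2 were the less stable calls: Atp5h lost significance in 5 and Atp5md in 9 of the 10 fits that left out 1 library each. In complex III, Uqcr11, its smallest subunit, stood at 252, 227, 229, 231 and 262 CPM in WT and at 201, 209, 198, 174 and 162 in GCERAd. All 5 GCERAd libraries were lower, with a change of -0.33 (SE 0.08, adjusted p = 0.0121).

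In complex I, the calls went both ways. Ndufs1, an iron-sulfur subunit that carries electrons through the peripheral arm, stood at 278, 307, 281, 284 and 269 CPM in WT and at 357, 323, 368, 340 and 323 in GCERAd. Every GCERAd library was above every WT library, and the log2 fold change was 0.28 (SE 0.07, adjusted p = 0.00897). Ndufb8 (-0.37, SE 0.11, adjusted p = 0.0234) and Ndufb11 (-0.25, SE 0.07, adjusted p = 0.0249), accessory subunits of the membrane arm, fell. The call of Ndufb8 was lost without WT 3 or GCERAd 1, and that of Ndufb11 without WT 2, GCERAd 4 or GCERAd 5. None of the 4 complex II genes was called: Sdha, the flavoprotein subunit of succinate dehydrogenase, changed by 0.14 (SE 0.09) and Sdhb, its iron-sulfur subunit, by -0.13 (SE 0.06). Of a list of 20 core subunits, the centres of complexes I, II, III and V and the larger nuclear subunits of complex IV, 1 rose (Ndufs1) and 1 fell (Cox5b), with a median change of -0.04. Of the other 62 members tested, 12 fell and none rose, with a median of -0.18.

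Cell type markers moved in the same comparison. The summed levels of 8 proximal tubule markers were 7210 to 8850 CPM in WT and 7830 to 11000 in GCERAd, with 1 of 8 higher. Markers of later segments were lower: 3 of 3 of the thick ascending limb, whose cells are also rich in mitochondria, 2 of 3 of the distal convoluted tubule and 4 of 5 of the collecting duct, of which none stood at 0. Ribosomal protein genes, which are likewise short and abundant, were lower in 49 of 91 with a median of -0.40. Among genes under 1000 bases that are no members, the median was -0.09 (n = 653). With library kind as a covariate it was -0.17, close to the -0.20 of the members in that fit. The part of cell composition, of sex and of library kind in the falls was not tested beyond the fits given.

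**Figure D2:**
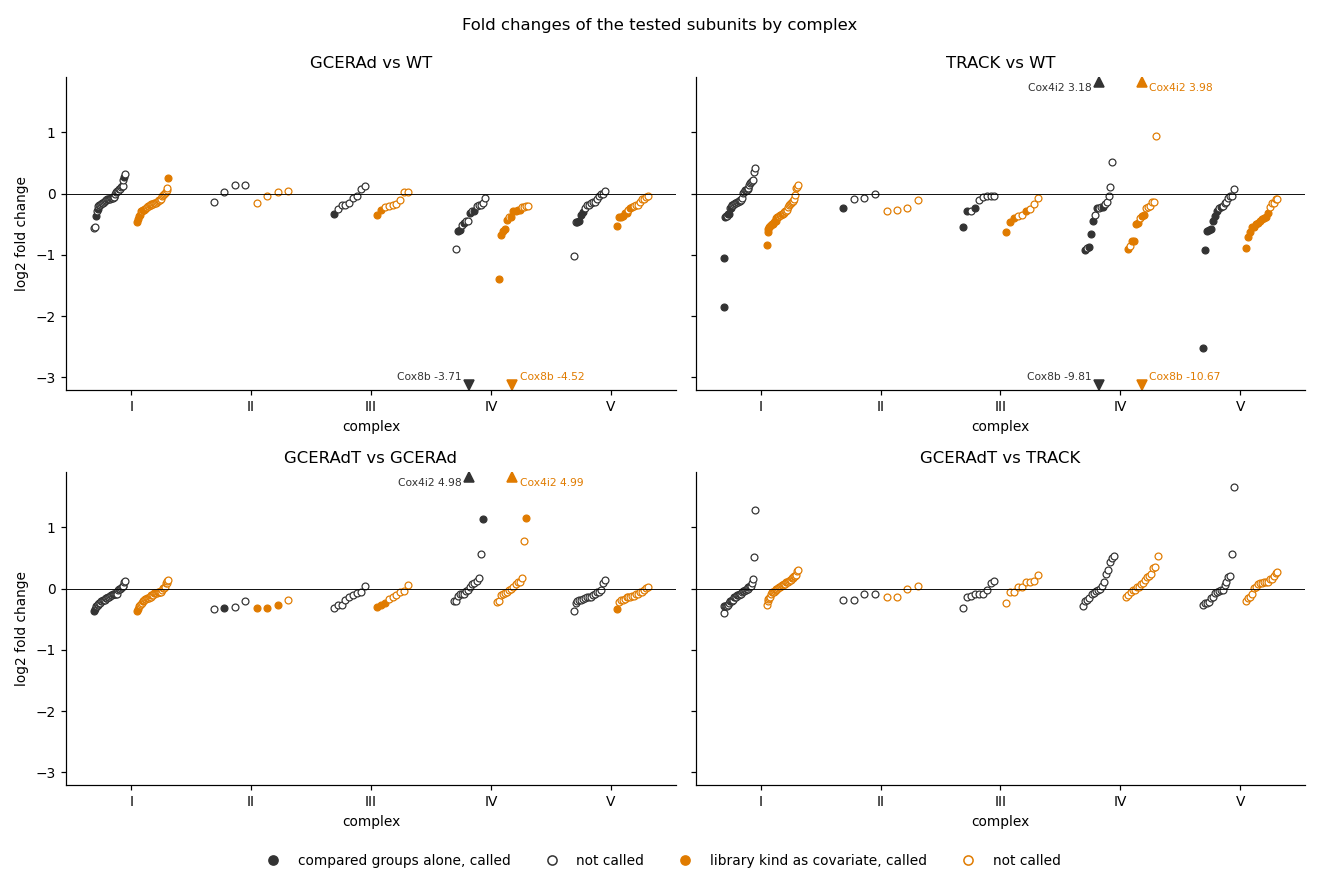
Log2 fold change of each member by complex in the 4 comparisons between groups; black points are fits of the compared groups alone, orange points have library kind as a covariate, and filled points passed an adjusted p of 0.05. Points beyond the axis limits are drawn as labelled triangles at its edge (Cox8b and Cox4i2). Filled points lie mostly below 0 in GCERAd against WT and in TRACK against WT, and no point is filled in GCERAdT against TRACK.

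TRACK against WT asked what the transgene did on an intact Atf4 gene. Here 27 of 83 members were lower (32.5%) and 1 was higher, against 22.6% lower and 23.0% higher of all 11967 genes tested. Falls were found in every complex: 7 of 36 in complex I, 1 of 4 in II, 3 of 9 in III, 7 of 17 in IV and 9 of 17 in V. The single rise was Cox4i2, the isoform of subunit IV that hypoxia-inducible factors are known to induce. The members' median was -0.15, and -0.01 for all genes. All 3 TRACK libraries are of kind B and only WT 2 shares that kind, so a fit with library kind as a covariate rests on that 1 library. It gave 41 lower (49.4%) against 10.8% of all genes and 1 higher against 12.4%, with a median of -0.35, and 20 members were called in both fits. Genes under 1000 bases that are no members (n = 829) had a median of 0.09, and of -0.04 with the covariate. The WT libraries are those of the comparison above, so the values of the 2 comparisons are not independent.

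Several of the largest falls moved with library kind. Atp5l, a small membrane subunit of the ATP synthase, stood at 176, 40.4, 176, 175 and 187 CPM in WT and at 25.2, 26.8 and 26.5 in TRACK. WT 2, the WT library of kind B, stood far below the other 4 and nearer to TRACK, and the change of -2.52 (SE 0.43, adjusted p = 0.00109) became -0.63 with library kind as a covariate (SE 0.09, adjusted p = 0.0018). Ndufb4, an accessory subunit of the complex I membrane arm, stood at 68.8, 19.4, 60.3, 61.4 and 77.9 CPM in WT and at 16.9, 17.7 and 13.4 in TRACK. Its change of -1.85 (SE 0.37, adjusted p = 0.00269) was -0.28 with the covariate and was not called. Atp5g2 and Cox7c (each -0.92) likewise shrank with the covariate, to -0.15 and -0.22, and were not called. For Cox6a1, Cyc1, Ndufa11, Sdhb and Uqcrb only the call was lost: their changes were -0.21 to -0.28 without and -0.20 to -0.36 with the covariate.

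Other falls were called with and without the covariate, though some changed in size. Cox7b stood at 239, 249 and 254 CPM in TRACK, below all 5 WT libraries (428 to 490 CPM), and fell by 0.87 on the log2 scale (SE 0.07, adjusted p = 1.11e-05), or by 0.90 with the covariate (adjusted p = 0.000748). Cox5b stood at 263, 272 and 259 CPM, again below every WT library, with changes of -0.66 (SE 0.09, adjusted p = 0.000292) and -0.48 (adjusted p = 0.0173). Uqcr11 stood at 166, 166 and 158 CPM, with changes of -0.55 (SE 0.07, adjusted p = 0.000247) and -0.47. Each of these 3 was lower in TRACK than in every WT library, including WT 2. Atp5g1, at 190, 207 and 180 CPM, changed by -0.57 (SE 0.09, adjusted p = 0.000571) and -0.49. Ndufs5, an accessory subunit of complex I that sits on the intermembrane side, changed by -1.05 (SE 0.16, adjusted p = 0.000519) and -0.49, less with the covariate. Atp5md changed by -0.61 (SE 0.11, adjusted p = 0.0018) and by -0.88 with the covariate, and Ndufb11 by -0.38 (SE 0.07, adjusted p = 0.00216) and -0.55.

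Among the 20 core subunits, 7 fell and none rose. These were the complex I subunits Ndufs8 (-0.37) and Ndufv2 (-0.33), Sdhb (-0.24), the cytochrome c1 gene Cyc1 (-0.23), Cox5a (-0.24), Cox5b and the rotor shaft gene Atp5c1 (-0.22). Subunits that did not pass included Sdha (0.0), Uqcrc1 (-0.03), Atp5a1 (-0.03), Atp5b (-0.07) and Cox4i1 (-0.14). Proximal tubule markers were lower as well, summing to 4470 to 5360 CPM in TRACK against 7210 to 8850 in WT, with 4 of 8 lower and none at 0. Markers of later segments were lower too: 2 of 3 of the thick ascending limb, 3 of 3 of the distal convoluted tubule and 5 of 5 of the collecting duct. Endothelial markers were higher in 3 of 3. With library kind as a covariate fewer of each were called, 2 of 8 for the proximal tubule. The 13 transcripts of mitochondrial DNA were lower in 12 cases, or 8 with library kind as a covariate. The part of cell composition in the falls was not tested.

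**Figure D3:**
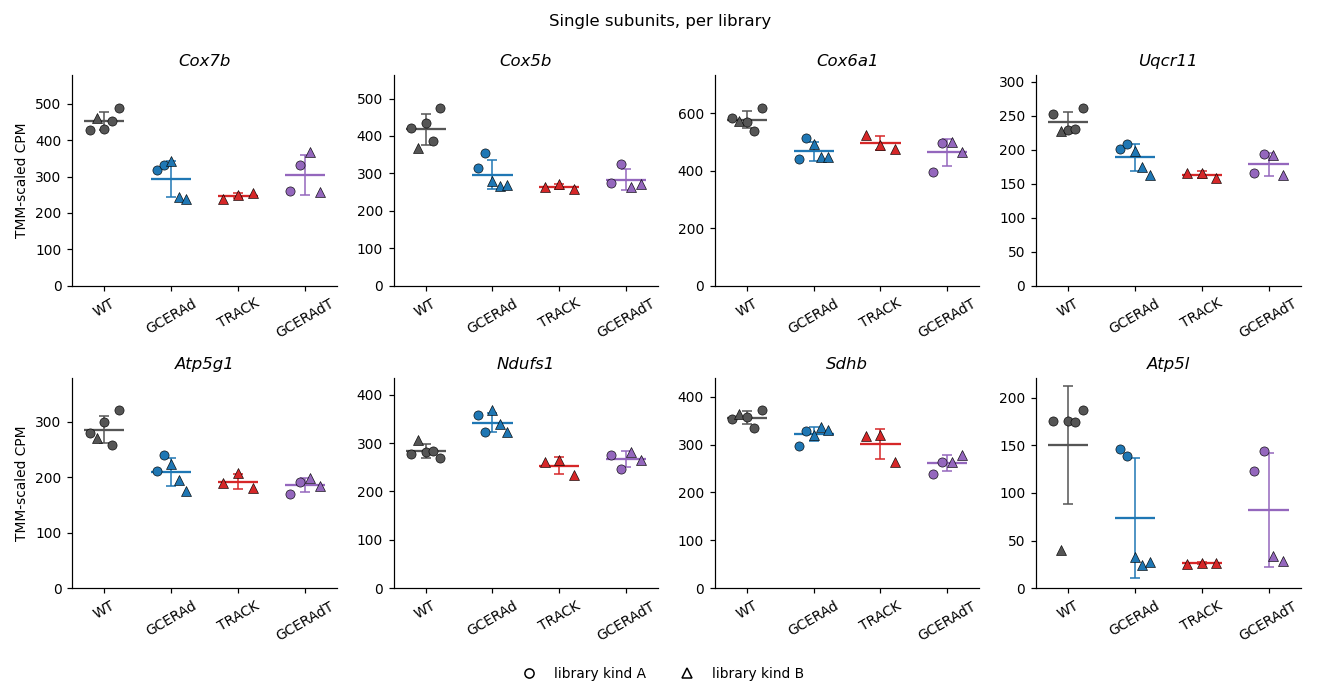
Levels in CPM (scaled by TMM) of 8 subunits in each of the 17 libraries, by group; circles are kind A, triangles kind B, lines group means and bars 1 SD. For Cox7b, Cox5b and Uqcr11 all 3 TRACK libraries lie below all 5 WT libraries, and for Atp5l the WT library of kind B (40.4 CPM) stands apart from the other 4 (175 to 187 CPM).

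GCERAdT against GCERAd asked what the TRACK transgene did in mice with the ATF4 KO label. It gave 2 members higher and 3 lower of 82, against 9.39% and 9.79% of all 11816 genes tested, with a median of -0.11. Both rises were isoforms of complex IV, Cox4i2 and Cox6a2. With library kind as a covariate 2 were higher and 11 lower, against 12.6% and 13.3% of all genes, with a median of -0.10. With the mouse numbers taken as pairs in a replicate block, 2 were higher and 23 lower of 82, against 15.4% and 16.5% of all genes. Same-numbered libraries also share library kind, so this pairing is uncertain (as given under the processing).

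The 3 falls were those of Ndufs1, Sdhb and Ndufa10, of complexes I and II. Ndufs1 stood at 357, 323, 368, 340 and 323 CPM in GCERAd and at 276, 246, 282 and 265 in GCERAdT. The groups did not overlap, and the change was -0.37 (SE 0.08, adjusted p = 0.00907). Sdhb, whose promoter is printed above, stood at 298, 328, 321, 336 and 331 CPM in GCERAd and at 239, 264, 263 and 279 in GCERAdT. It fell by 0.32 on the log2 scale (SE 0.08, adjusted p = 0.0172) without overlap, a call that was lost without GCERAdT 1. Ndufa10, an accessory subunit of the complex I membrane arm, stood at 207, 236, 220, 261 and 245 CPM in GCERAd and at 182, 188, 172 and 204 in GCERAdT. Its change was -0.34 (SE 0.09, adjusted p = 0.0249), and the call was lost in 6 of the 9 fits that left out 1 library. With library kind as a covariate 3 of the 4 complex II genes fell, Sdha (-0.31), Sdhb (-0.31) and Sdhc (-0.27). In the same fit 8 of the 20 core subunits fell, among them Atp5b (-0.34), which encodes the catalytic subunit of ATP synthase. Proximal tubule markers were also lower, at 4990 to 5870 CPM in sum in GCERAdT against 7830 to 11000 in GCERAd, with 4 of 8 called and none at 0.

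GCERAdT against TRACK compared cortices of the cancer model with and without the ATF4 KO label. By edgeR's quasi-likelihood test 0 of 82 members were called, against 2.81% higher and 4.28% lower of all 11928 genes tested. At an unadjusted p of at most 0.05 there were 16, and DESeq2 called 1 higher and 4 lower, against 6.05% and 7.04% of all genes. The changes ran from -0.40 to 1.66 with a median of -0.08. The upper end was Atp5l (1.66) and Ndufb4 (1.29), of which TRACK has only kind B libraries and GCERAdT 2 of each kind. With the covariate, 0 were called, against 1.4% higher and 2.47% lower of all genes, 1 passed unadjusted, and the range narrowed to -0.26 to 0.53 with a median of 0.06. Without GCERAdT 4, 9 members were called, 4 higher and 5 lower, against 5.85% and 6.01% of all genes. Cox7b stood at 239, 249 and 254 CPM in TRACK and at 259, 331, 369 and 258 in GCERAdT, a change of 0.31 (SE 0.14, adjusted p = 0.194). Sdhb changed by -0.19 (SE 0.10, adjusted p = 0.249).

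The interaction tested whether the ATF4 KO went with another change in the TRACK model than outside it, as the log2 fold change of GCERAdT over TRACK minus that of GCERAd over WT. It was called above 0 in 11 of 83 members (13.3%) and below 0 in 2 (2.41%), against 12.3% and 12.8% of all 12208 genes tested. The share above 0 was near that of all genes, and the members' median was 0.06. Calls above 0 numbered 18 and calls below 0 none with library kind as a covariate, against 10.7% and 11.2% of all genes, with a median of 0.24. Genes under 1000 bases that are no members (n = 902) had a median of 0.07 without the covariate and 0.26 with it. Complex IV held 5 of the 11. Cox7b had an interaction of 0.92 (SE 0.18, adjusted p = 0.00173), from -0.61 outside the model and 0.31 within it. Cox5b followed at 0.59 (SE 0.14, adjusted p = 0.00674), Atp5h at 0.57 (SE 0.15, adjusted p = 0.0117) and Uqcr11 at 0.47 (SE 0.12, adjusted p = 0.0116). These 4 calls held in all 17 fits without 1 library and with library kind as a covariate. The other positive values were those of Cox7a2l (0.35), Atp5g1 (0.41), Ndufb11 (0.42), Cox7c (1.05), Ndufs5 (1.07), Cox4i2 (1.82) and Atp5l (2.68). Of these, Atp5g1, Cox7c, Ndufs5 and Cox4i2 were not called with library kind as a covariate. Across the alternatives, Atp5l, Ndufs5 and Cox7c ran as low as 0.60, 0.36 and 0.35. Each of these 3 also lost its call in 12 of the 17 fits without 1 library. The negative ones were Ndufa10 (-0.38) and the NADH-binding subunit Ndufv1 (-0.40), and neither was called with the covariate, where Ndufa10 was -0.34 (adjusted p = 0.0612) and Ndufv1 -0.23 (adjusted p = 0.222). The interaction uses the WT libraries, so the limit set by sex holds here too. Ribosomal protein genes had 59 of 92 called above 0 and 1 below.

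Several subunits of complex IV exist as a general form and as a form of muscle, lung or other tissues, and these pairs gave the clearest single pattern. Cox4i2 (ENSMUSG00000009876, chr2:152754173-152765037) stood at 0.555, 0.342, 0.603, 0.836 and 0.666 CPM in WT and at 0.388, 0.0494, 0.207, 0.403 and 0.138 in GCERAd. It stood at 7.34, 6.47 and 2.49 CPM in TRACK and at 6.97, 8.05, 8.58 and 6.92 in GCERAdT. Every library with the transgene was above every library without it, TRACK 3 lowest among them. The log2 fold change was 3.18 (SE 0.39, adjusted p = 0.000162) for TRACK over WT and 4.98 (SE 0.43, adjusted p = 3.25e-05) for GCERAdT over GCERAd. Per length, Cox4i2 still made up a small part of the Cox4i1 and Cox4i2 total: 0.0711 to 0.238% in WT, 0.016 to 0.148% in GCERAd, 0.648 to 1.93% in TRACK and 1.85 to 2.49% in GCERAdT. Cox4i1 stood at 783, 946, 827, 689 and 819 CPM in WT and at 732, 737 and 750 in TRACK.

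Ndufa4l2, a target of hypoxia-inducible factors that the rule left out, had the same split. It stood at 2.39 to 3.14 CPM in WT, 2.97 to 4.33 in GCERAd, 113, 101 and 47.6 in TRACK and 89.8, 116, 121 and 101 in GCERAdT, with log2 fold changes of 5.01 for TRACK over WT and 4.86 for GCERAdT over GCERAd. TRACK 3 was the lowest transgenic library for both genes. In all, 4 of 5 listed targets of hypoxia-inducible factors in this pathway rose in each of these comparisons. Cox4i2 is also known from pericytes and smooth muscle cells, and 4 of 4 of their markers were higher in TRACK than in WT, none at 0. Their sum was 88.8 to 113 CPM in WT, 94.0 to 183 in GCERAd, 246 to 302 in TRACK and 143 to 171 in GCERAdT. The median change of these 4 was 1.4 in TRACK against WT. In GCERAdT against GCERAd it was 0.10, with 0 of the 4 called. The part of pericytes and smooth muscle cells in the Cox4i2 level was not tested in either comparison.

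Cox8b, the heart and skeletal muscle isoform of subunit VIII, was found mainly in WT. It stood at 1.67, 3.47, 2.13, 1.49 and 0.849 CPM in WT and at 0, 0.0659, 0.552, 0 and 0.103 in GCERAd, a sum of 565 against 42 counts. The groups did not overlap, GCERAd 3 was the highest of its group, and the change was -3.71 (SE 0.88, adjusted p = 0.00875). TRACK and GCERAdT held 0 counts, so WT was at least 109-fold higher than TRACK and at least 158-fold higher than GCERAdT, taking 3 counts over the group as the floor. The summed level of 5 skeletal muscle markers was also highest in WT, at 3.97 to 11.4 CPM against 0.685 to 1.64 in all other libraries. Nearly all of it was Myh1 (3.38 to 10.4 CPM in WT), while Myh4 and, in WT, Ckm were at 0 and Acta1 at most 0.0743 CPM. The part of muscle tissue in the Cox8b level was not tested.

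The other tissue isoforms differed less. Cox7a1, the muscle form of subunit VIIa, stood at 9.37, 12.7, 9.17, 8.36 and 11.3 CPM in WT, 6.36, 6.66, 7.88, 7.14 and 5.57 in GCERAd, 7.47, 6.19 and 8.7 in TRACK and 5.7, 6.47, 6.38 and 7.19 in GCERAdT. It fell by 0.59 on the log2 scale in GCERAd (SE 0.14, adjusted p = 0.00851) without overlap, and by 0.45 in TRACK (SE 0.17, adjusted p = 0.0499), where groups overlapped in TRACK 3 and the call was lost in 6 of 8 fits without 1 library. Cox6a2, the muscle form of subunit VIa, stood at 0.589, 0.758, 1.19, 0.934 and 0.533 CPM in GCERAd and at 2.11, 1.69, 1.29 and 2.02 in GCERAdT, a rise of 1.13 (SE 0.33, adjusted p = 0.0366) at low level that was lost in 6 of 9 such fits. Cox6b2, the testis form of subunit VIb, stood at 13.6, 15.3, 11.3, 14.1 and 14.6 CPM in WT and at 3.69, 3.96, 5.49, 11.8 and 11.8 in GCERAd. GCERAd 1 to 3 stood far below WT while GCERAd 4 and 5 reached its lowest library, and the change of -0.90 (SE 0.32, adjusted p = 0.0562) was called only with library kind as a covariate, at -1.39 (adjusted p = 0.00431). The general forms Cox6b1, Cox7a2 and Cox8a were called in none of the 4 comparisons between the compared groups alone.

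**Figure D4:**
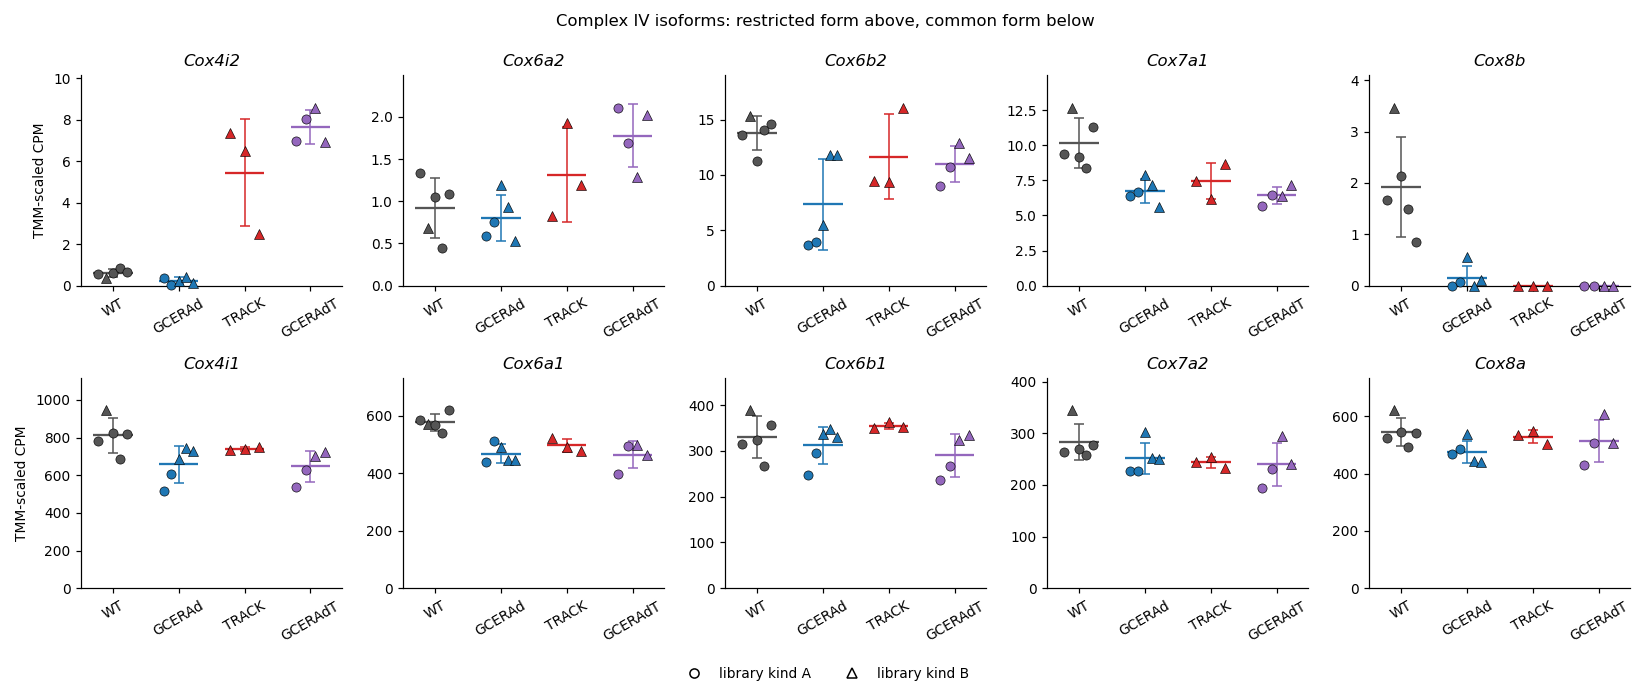
Levels in CPM (scaled by TMM) of the tissue isoforms Cox4i2, Cox6a2, Cox6b2, Cox7a1 and Cox8b (above) and of their general forms Cox4i1, Cox6a1, Cox6b1, Cox7a2 and Cox8a (below) in the 17 libraries, by group, with circles for kind A, triangles for kind B, lines for group means and bars for 1 SD. Cox4i2 is above 2 CPM in every TRACK and GCERAdT library and below 1 CPM in every other, and Cox8b is at 0 in all TRACK and GCERAdT libraries.

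Library kind itself went with many members. In a fit of all 17 libraries with the 4 groups and library kind, 42 of 83 members (50.6%) were higher and 7 (8.43%) lower in kind B, against 10.6% and 11.1% of all genes tested, with a median of 0.19. The lowest in kind B were Atp5l (-2.21, SE 0.08), Ndufb4 (-1.74, SE 0.11), Atp5g2 (-0.84), Ndufs5 (-0.79) and Cox7c (-0.78), and Ndufb2 was 1.20 higher. Sequence is shared between genes here: 51 of the 85 members had at least 1 stretch of 51 bases that also occurs in another gene, and 34 in a pseudogene. Of those 34, 12 were higher and 6 lower in kind B, and of the other 49 tested, 30 were higher and 1 lower. In TRACK against WT, 19 of the 34 fell (55.9%) and 8 of the other 49 (16.3%), against 22.6% of all genes. Their median log2 fold changes were -0.26 and -0.11. With library kind as a covariate, a fit that rests on WT 2, the medians were closer to each other, at -0.38 and -0.32. How the reads of such stretches were assigned is not given in the sources used here, so the levels of these genes are uncertain, and the part of shared sequence in the falls was not tested.

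**Figure D5:**
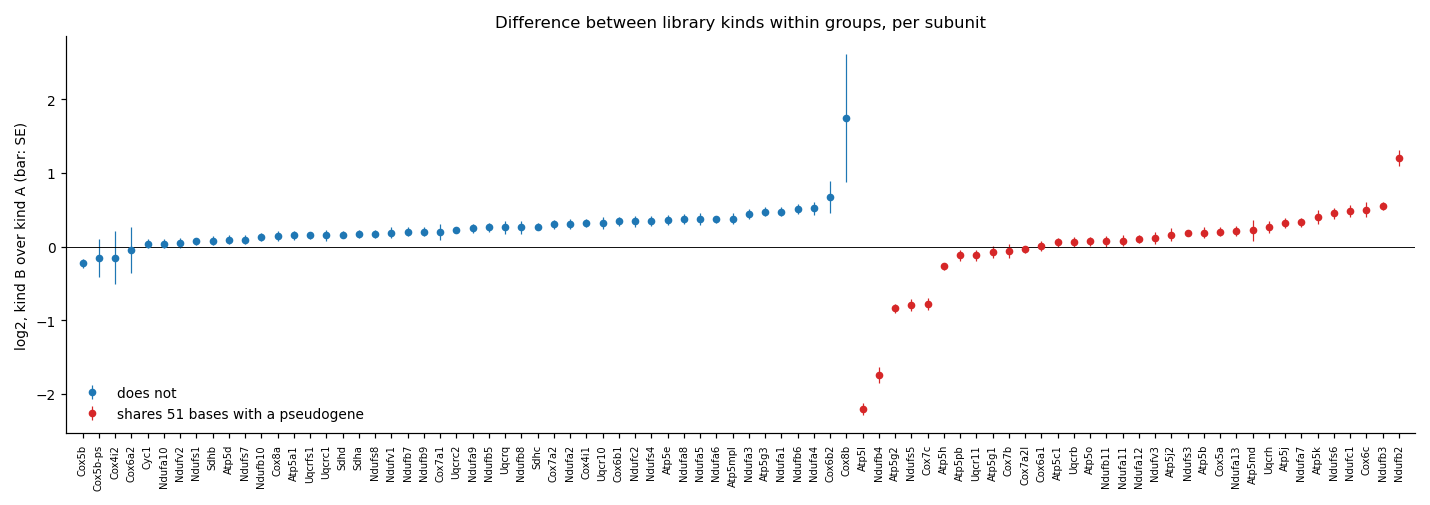
Log2 difference of kind B over kind A libraries for 82 of the 83 members tested, with the SE, from a fit of all 17 libraries. Red points share at least 51 bases with a pseudogene and blue points do not; the 2 lowest, Atp5l (-2.21) and Ndufb4 (-1.74), are red.

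X-linked members were Ndufa1, Ndufb11 and Cox7b. Ndufb11 and Cox7b were lower in GCERAd and in TRACK than in WT, as given above, and Ndufa1, a small membrane subunit of complex I, was called in neither (TRACK over WT 0.14, SE 0.15). Its value for TRACK over WT turned, with library kind as a covariate, to -0.33 (SE 0.10, adjusted p = 0.0401). WT and the other groups differed in sex, so a difference by sex cannot be told apart from these falls. Between groups of like sex, none of the 3 was called in GCERAdT against GCERAd or against TRACK. Those comparisons called only 5 and 0 of 82 members, so no call among 3 genes says little. The part of sex was not tested.

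Genes that build the complexes or control them were called in both directions, and their counts are to be read against the shares of all genes given above for each comparison. In complex IV assembly, 3 of 22 rose and none fell in GCERAd against WT (13.6%, near the 14.1% of all genes). In TRACK against WT, 1 of 23 rose and 6 fell, and in GCERAdT against GCERAd 1 of 22 rose and 5 fell. Cox15, needed to make the heme A of cytochrome oxidase, was 0.41 higher in GCERAd than in WT and 0.58 lower in GCERAdT than in GCERAd (log2 fold change -0.58). Of 17 complex I assembly factors, 1 fell in GCERAd, 5 fell in TRACK and 4 fell in GCERAdT against GCERAd, with no rise. Of 21 regulators of mitochondrial genes, 3 rose and 4 fell in GCERAd against WT, 5 rose and 6 fell in TRACK against WT, or 3 and 0 with library kind as a covariate, and 3 rose and 2 fell in GCERAdT against GCERAd. Esrra, the estrogen-related receptor alpha that activates respiratory genes, changed by -0.38 in TRACK over WT, or -0.32 with the covariate (adjusted p = 0.0509), and by -0.53 in GCERAdT over GCERAd. Ppargc1a, its coactivator, changed by -0.32 in GCERAd over WT and by -0.54 in TRACK over WT, the latter -0.39 with the covariate (adjusted p = 0.134). Esrrg, the related receptor gamma, rose by 0.40 in GCERAd over WT and by 0.43 in TRACK over WT, and was called with the covariate too. Esrrb, the related receptor beta, had the largest change of the regulators called in GCERAd over WT, -0.97 (SE 0.11, adjusted p = 6.64e-05). The others called there were Atf5 (-0.63), Nrf1 (-0.29), Hspd1 (0.47) and Lonp1 (0.17). In GCERAdT against TRACK, 0 of the complex I factors, 0 of the complex IV factors and 2 of the regulators, which fell, were called.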

How the data were processed

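Kidney cortex mRNA was sequenced from 17 samples (TruSeq Stranded mRNA), and the table of counts per gene deposited by the authors was used: per the submitters' processing notes bcl2fastq 2.20, cutadapt, STAR and HTSeq with GRCm38. The annotation release and strand setting are not given in the sources used here. These counts are whole numbers with no normalization. Totals ran from 53688512 to 71364561 per library, and intervals or floors cover counting error only.

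The test took genes whose mean FPKM, from merged GENCODE exon lengths, reached 1 in some compared group, and was made with edgeR 4.0.16 (R 4.3.3, limma 3.58.1) using TMM scaling and the quasi-likelihood test (glmQLFTest). Calls were made where p, adjusted by Benjamini-Hochberg across every tested gene, did not exceed 0.05. Each pairwise fit held the compared groups alone, and the interaction was fitted over all 17 samples. CPM values are TMM-scaled. p-values measure the spread between samples labelled as separate mice. Library kind was split at a pseudogene share of 0.0477%. The scripts were tested on simulated data.

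The named members were the 6 largest called changes in each direction per comparison, tissue isoforms, core subunits, X-linked members and the extremes of level; Atp5h, Atp5o, Ndufb8, Cox7a2l, Cox6a1, Cox6c and Uqcr11 in some comparisons were named after their values were seen. Members, lists and library kind were chosen with earlier results of these data known. Alternatives were DESeq2 1.42.0, RLE and upper quartile scaling, no FPKM minimum or one of 5, all 17 samples in 1 fit, a replicate block, library kind as a covariate or 1 kind alone, possible repeat libraries summed, and each library left out. The fit of all 17 samples with library kind was chosen after seeing the data.

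Same-numbered GCERAdT and GCERAd samples deviated together from their group means (r = 0.427, 0.556, 0.518 and 0.393). In both groups mice 1 and 2 are of kind A and 3 and 4 of kind B. Library kind was not removed from these deviations, so shared kind cannot be told apart from pairing by mouse. The numbers were taken as pairs for the replicate block on this uncertain ground. In the other comparisons r ran from -0.608 to 0.084, and the numbers were not taken as pairs. Shared sequence was counted as identical stretches of 51 bases between exons of different genes. Protein sequences were not used here. The values of 1 member are not reported here by name.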

Additional observations from a re-analysis of the deposited data

Results flagged for a closer look

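In 5 of the 75 groups of 4 to 10 libraries that were looked at, 1 library stood far from the others, where chance gives about 1 in 20. In WT, library 2 was apart for Atp5g2 (43.1 CPM, nearest 76.3), Atp5l (40.4 CPM, nearest 175), Cox7c (140 CPM, nearest 243) and Cox7a2 (345 CPM, nearest 277), low for the first 3 and high for the last. It is the only WT library of kind B. In GCERAd, library 3 was apart for Cox8b (0.552 CPM, nearest 0.103).

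By the interaction term, GCERAdT over TRACK differed from GCERAd over WT in 13 of 83 members. Of these, 11 were above 0 (13.3%, near the 12.3% of all genes) and 2 below (2.41% against 12.8%). WT differs from the other groups in sex, and library kinds are unevenly spread over the groups. Sex and library kind therefore cannot be told apart from the ATF4 KO in this term. The difference in log2 fold change was negative for Ndufv1 (-0.40) and Ndufa10 (-0.38). It was positive for Cox7a2l (0.35), Atp5g1 (0.41), Ndufb11 (0.42), Uqcr11 (0.47), Atp5h (0.57), Cox5b (0.59), Cox7b (0.92), Cox7c (1.05), Ndufs5 (1.07), Cox4i2 (1.82) and Atp5l (2.68). With library kind as a covariate, Atp5h, Atp5l, Cox5b, Cox7a2l, Cox7b, Ndufb11 and Uqcr11 were called again. Atp5g1, Cox4i2, Cox7c, Ndufa10, Ndufs5 and Ndufv1 were not. In that fit the highest value of any complex V member, Atp5l included, was 0.75.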

How the results depend on the processing

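No call changed direction in any alternative. Over the called members, 540 alternative values kept their call and 112 lost it, and with 1 library left out 487 kept it and 143 lost it; the cause was not tested. With the replicate block the number of members called was 8 in place of 14 in GCERAd against WT, 3 in place of 0 in GCERAdT against TRACK, 18 in place of 28 in TRACK against WT, 25 in place of 5 in GCERAdT against GCERAd and 14 in place of 13 for the interaction; only for GCERAdT against GCERAd were the numbers taken as pairs. With library kind as a covariate it was 31 in GCERAd against WT, 42 in TRACK against WT, 13 in GCERAdT against GCERAd and 18 for the interaction. With all 17 samples and library kind, chosen after seeing the data, it was 42, 48 and 21 in the 3 comparisons other than GCERAdT against TRACK, and with all 17 samples in 1 fit 14 in GCERAdT against GCERAd. Kind B alone, with fewer samples, gave 0 in GCERAd against WT, 1 in GCERAdT against GCERAd and 0 for the interaction. DESeq2 gave 5 in GCERAdT against TRACK and 11 in GCERAdT against GCERAd. With no FPKM minimum the numbers were 2 in GCERAdT against TRACK, 3 in GCERAdT against GCERAd and 8 for the interaction. With 1 library left out, the number ran from 11 to 20 in GCERAd against WT, 0 to 9 in GCERAdT against TRACK (9 without GCERAdT 4), 18 to 38 in TRACK against WT (18 without WT 5), and 2 to 9 in GCERAdT against GCERAd (9 without GCERAd 1, 3 without GCERAd 2, GCERAd 5 or GCERAdT 2, and 2 without GCERAdT 1). For the interaction it ran from 5 to 17 (5 without TRACK 2, 6 without TRACK 1 or GCERAdT 2, 7 without WT 5, GCERAd 5 or TRACK 3, and 8 without WT 4, GCERAd 4 or GCERAdT 1). Possible repeat libraries were summed as WT 1 with WT 2 and GCERAd 2 with GCERAd 3, where present. This gave 16, 33, 5 and 14 in GCERAd against WT, TRACK against WT, GCERAdT against GCERAd and the interaction. Both sums join kinds A and B, r for WT 1 and 2 was -0.013, and GCERAd 4 and 5 were not summed. The fits with kind A alone were not run for GCERAdT against TRACK, TRACK against WT and the interaction, since TRACK has no library of that kind. Counting error weighs most on Cox8b, Cox6a2 and Cox4i2, which stood at a few CPM or less in most libraries.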
